A study of Mus musculus with 9 samples.

Results

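The genes described here are 8 secreted factors of fat: Adipoq, Lep, Retn, Apln, Nrg4, Cfd, Rbp4 and Nampt. They were chosen by name, with earlier results of these data known. Every probe set (a group of short probes that reads 1 transcript) which the array's probe table assigns to 1 of them alone was taken. Of the 8 genes, 7 had probe sets, 10 in all among 45101 on the array. No probe set carries the symbol Cfd in the table used, so Cfd, coding for the complement protease adipsin, was not analysed here. The 9 arrays fall into 3 groups of 3: adipocytes given 100 ng/ml PTH(1-34) for 4 h, adipocytes given 100 ng/ml PTHrP(1-34) for 4 h, and control adipocytes, for which the sources used here do not say what was added during those 4 h. All 3 groups were primary white adipocytes grown from stromal-vascular cells, the part of fat left once the fat cells are removed, taken from the inguinal fat of male C57BL6 mice aged 30 to 35 days. All had passed through a 2-day induction with rosiglitazone (1 µM), insulin (5 µg/ml), dexamethasone (1 µM) and isobutylmethylxanthine (0.5 µM). Rosiglitazone and insulin alone followed, and from day 6 plain medium, before the treatment on day 8. The labels call the replicates biological without saying whether they came from separate mice or dishes, so the p-values measure the spread between these samples only.

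Adipokines are proteins that fat cells release to act on other tissues and on neighbouring cells. Adiponectin (Adipoq), resistin (Retn), leptin (Lep) and retinol-binding protein (Rbp4) circulate in blood, apelin (Apln) is a small peptide that acts on vessels and heart, neuregulin 4 (Nrg4) is a growth factor prominent in thermogenic fat, and Nampt makes a precursor of NAD inside cells and is also found outside them. PTH (parathyroid hormone) and PTHrP (PTH-related protein) act on the same receptor, which raises cyclic AMP.

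Adipocyte markers were bright in every group: the summed intensity of 8 markers lay between 64601 and 67450 with PTH, between 62668 and 66666 with PTHrP and between 63932 and 65784 in controls. That sum holds Adipoq itself. Without Adipoq the other 7 summed to 51100 to 52631 with PTH, 49701 to 52979 with PTHrP and 50653 to 51932 in controls. A large part is Fabp4 (18203 with PTH, 17944 in controls) and Lpl (14056 and 13992), near the highest values of the arrays (17113 to 18614). Whether signal is proportional to RNA there was not tested, so a steady sum does not show a steady adipocyte content. The cultures also carried signal of fibroblast markers (8 genes summed, 42590 to 43361 with PTH, 41166 to 44427 with PTHrP and 43881 to 44696 in controls). The summed signal of 8 smooth muscle and pericyte markers was lower on all treated arrays, at 21806 to 22149 with PTH and 20888 to 22103 with PTHrP, against 23005 to 23613 in controls. That sum is mostly Acta2 (12400 with PTH, 12821 in controls) and Tagln (6835 and 7392), which did not pass the threshold (adjusted p below 0.05 in limma). Of the 8, 1 fell past it with each peptide, with median log2 changes of -0.08 and -0.095. Rgs5 (0.23) and Cspg4 (0.05) had positive log2 changes with PTH and did not pass. Endothelial markers, of interest because vessels make apelin too, were mostly dim: 4 of 9 (Pecam1, Tie1, Esam and Vwf) lay below the dim level on every array. Kdr, Cdh5 and Tek lay above it on average, with means of 104, 56.4 and 39.7 with PTH and 150, 52.8 and 47.3 in controls. The sum of the 9 was 265 to 316 with PTH, 279 to 360 with PTHrP and 327 to 376 in controls. The dim level, 29.0, is the intensity below which 40% of the probe sets lie. Macrophage markers summed to 1105 to 1259 with PTH, 1102 to 1225 with PTHrP and 1036 to 1133 in controls (9 genes, with Cd163, Itgam and Aif1 below the dim level throughout), and all 6 measured neutrophil and lymphocyte markers were below it. Mesothelial and epithelial markers summed to 310 to 382 with PTH, 293 to 359 with PTHrP and 294 to 346 in controls, with 4 of 8 below the dim level. Among these marker genes, Cidec (log2 change 0.28 with PTH and 0.31 with PTHrP) was higher, and Slc2a4 (-0.33 and -0.38), Pdgfrb (-0.31 and -0.35) and Myh11 (-0.38 and -0.45) were lower, past the threshold with each peptide. With 1 array left out the PTH calls were lost as follows: Cidec without any PTH or control array or PTHrP replicate 2 (adjusted p up to 0.132), Slc2a4 without any PTH array or control replicate 1 or 3, Pdgfrb without PTH replicate 2 or 3, and Myh11 without any PTH array or control replicate 2 or 3. Of the PTHrP calls, Cidec was lost without all but PTH replicate 1 and PTHrP replicate 3 (up to 0.107) and Slc2a4 without PTHrP replicate 2 or control replicate 3, while Pdgfrb and Myh11 held. Other alternatives also ended calls of Cidec, Slc2a4 and Myh11. When its probe sets were averaged Myh11 passed with neither peptide, and with only the groups compared in the fit it did not pass with PTHrP. The actin control transcript, read near both of its ends as a sign of RNA quality, had a 3' over 5' ratio of 1.59 to 1.65 with PTH, 1.52 to 1.61 with PTHrP and 1.45 to 1.51 in controls. The same ratio for Gapdh was 0.980 to 0.988 with PTH, 0.931 to 0.975 with PTHrP and 0.950 to 0.985 in controls. Each peptide group overlapped the controls in it, while every PTH array was above every PTHrP array. The part of these differences in the results below was not tested, and in such bulk samples fewer cells of a type and less RNA per cell cannot be told apart.

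Apln and Nrg4 were higher with each peptide, Nampt was slightly lower with PTH, and Adipoq and Retn, both very bright, overlapped with controls and did not pass the test. With PTH, 2 of the 7 measured members rose and 1 fell by limma (adjusted p below 0.05), where 2.96% of all 18193 genes rose and 3.14% fell. With PTHrP, 2 rose and 0 fell, where 2.54% of genes rose and 3.03% fell; at an unadjusted p below 0.05, Apln and Nrg4 were higher with PTHrP, where 8.22% of genes were, and Nampt was lower, where 10.1% were. At the same unadjusted p, Apln, Nrg4 and Rbp4 were higher with PTH, where 9.19% of genes were, and Nampt was lower, where 9.82% were. With both peptides pooled against control, 2 members rose and 1 fell, where 3.84% of genes rose and 4.57% fell. The 2 comparisons share their 3 control arrays. Since the members were chosen with earlier results of these data known, the shares of all genes are a background and not a test of the set. The median log2 change of the 7 members, the dim Lep included, was 0.05 with PTH and 0.01 with PTHrP, and that of all genes was -0.0027 and -0.0050.

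**Figure D1:**
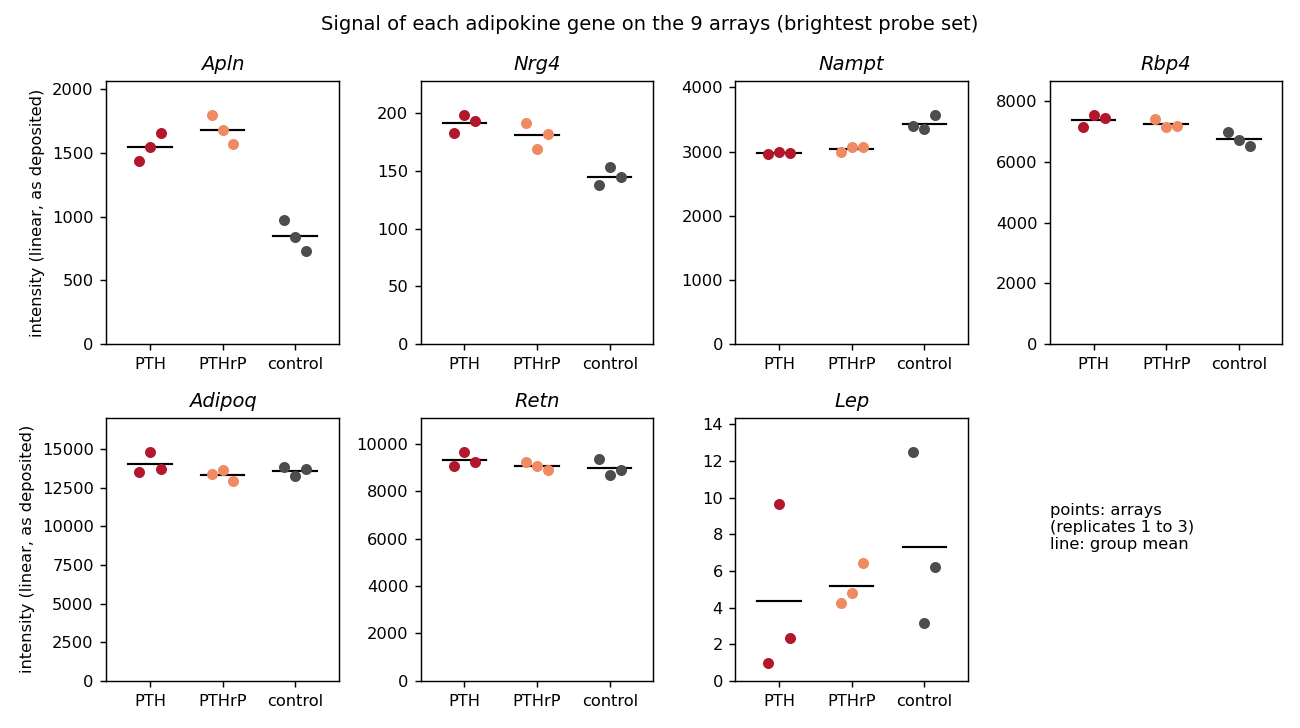
Intensity of the brightest probe set of each measured adipokine gene (vertical axes, linear, each from 0) on the PTH, PTHrP and control arrays; points are arrays and lines are means of 3. The treated arrays of Apln, Nrg4 and Rbp4 all lie above the controls and those of Nampt all lie below, whereas Adipoq, Retn and Lep overlap.

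Apln (Entrez gene 30878), coding for apelin, changed most among the 7. Its intensity was 1435, 1546 and 1653 on the PTH arrays, 1793, 1682 and 1565 on the PTHrP arrays, and 970, 837 and 731 on the control arrays. Every treated array was above every control array. The means were 1545 ± 109 with PTH, 1680 ± 114 with PTHrP and 846 ± 120 in controls (SD, n = 3 each), a ratio of 1.83 for PTH and 1.99 for PTHrP. On the log2 scale of intensity + 16, used for all tests, the change was 0.86 with PTH (SE 0.11, 95% interval 0.62 to 1.11, adjusted p = 0.00325) and 0.98 with PTHrP (SE 0.11, 0.74 to 1.23, adjusted p = 0.00164). Both calls held when each of the 9 arrays was left out in turn (highest adjusted p 0.0197 with PTH and 0.0110 with PTHrP) and under the 10 other alternatives (highest 0.0170 and 0.0144). The actin ratio given above was likewise higher on all treated arrays than on all controls, while that of Gapdh overlapped; the part of the actin ratio in the change of Apln was not tested.

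Nrg4 (83961), coding for neuregulin 4, a ligand of the receptor ErbB4, rose less. Its brighter probe set read 183, 198 and 193 with PTH, 192, 169 and 182 with PTHrP, and 138, 153 and 144 in controls, with no overlap between treated and control arrays. The log2 change was 0.36 with PTH (SE 0.06, adjusted p = 0.0130) and 0.29 with PTHrP (SE 0.06, adjusted p = 0.0361), or 31.8% and 24.6% above the control mean. Leaving out PTH replicate 2 or 3 ended the PTH call (adjusted p = 0.0583 and 0.0605). The PTHrP call held only without PTHrP replicate 2 (0.0357) and was lost without any 1 of the other 8 arrays (0.0532 to 0.123). With both peptides pooled the log2 change was 0.33 (SE 0.05, adjusted p = 0.00838), and it stayed past the threshold without each array in turn (highest 0.0380).

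Nrg4's dimmer probe set was read apart. It gave 40.8, 42.9 and 46.8 with PTH, 37.7, 39.4 and 40.0 with PTHrP, and 34.0, 23.2 and 26.1 in controls, of which 2 of the 3 were below the dim level. The same order of groups is seen in it, with treated arrays above controls and no overlap. In the fit over all 45037 probe sets the log2 change was 0.45 with PTH (SE 0.09, adjusted p = 0.0427) and 0.34 with PTHrP (SE 0.09, adjusted p = 0.119); the brighter probe set had adjusted p = 0.0306 and 0.0767 there. Of the 10 probe sets of the members, 3 rose with PTH (Apln and both of Nrg4) where 1.34% of all probe sets rose, and 0 fell where 1.37% fell. With PTHrP 1 rose (Apln) where 1.19% did, and 0 fell where 1.2% did. At an unadjusted p below 0.05, limma gave 2 lower probe sets with PTH, where 7.63% of all were lower, and 1 with PTHrP, where 7.37% were, all of Nampt. The count of 3 higher with PTH was 1 or 2 without any 1 array: the brighter Nrg4 probe set lost its call in this fit without any PTH or control array (up to 0.128), and the dimmer without any array but control replicate 1 (up to 0.167).

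Nampt (59027) codes for the enzyme that makes nicotinamide mononucleotide from nicotinamide, the slow step of NAD salvage. Its brightest probe set read 2956, 2990 and 2972 with PTH, 2992, 3072 and 3076 with PTHrP, and 3403, 3347 and 3565 in controls. All treated arrays were below all controls, and the PTH arrays spread least (SD 16.7, against 47.5 with PTHrP and 114 in controls). Nampt fell by 0.21 on the log2 scale with PTH (SE 0.04, adjusted p = 0.0294), which is 13.5% below the control mean, and its log2 change with PTHrP was -0.17 (SE 0.04, adjusted p = 0.0623). The PTH call was lost without any 1 of the PTH arrays (0.0897 to 0.111) or of the controls (0.0575 to 0.0785). With both peptides pooled the log2 change was -0.19 (adjusted p = 0.0184), lost without PTH replicate 3 (0.0523), control replicate 1 (0.0527) or control replicate 3 (0.0664).

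The probe sets of Nampt disagreed in size. The dimmest read 96.3, 102 and 89.0 with PTH, 121, 91.0 and 115 with PTHrP, and 110, 125 and 133 in controls. Its PTH arrays lay below the controls and its PTHrP arrays overlapped them (log2 change -0.31, SE 0.11, adjusted p = 0.206 with PTH, and -0.16, adjusted p = 0.602 with PTHrP). The remaining probe set read 1140, 1221 and 1168 with PTH, 1165, 1118 and 1218 with PTHrP, and 1228, 1322 and 1159 in controls, overlapping with both peptides (log2 change -0.07 and -0.08, SE 0.07 each, adjusted p = 0.730 and 0.686). Averaged over the 3 probe sets, the log2 change of Nampt with PTH was -0.20 (adjusted p = 0.0978), so its call rests on the brightest probe set.

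**Figure D2:**
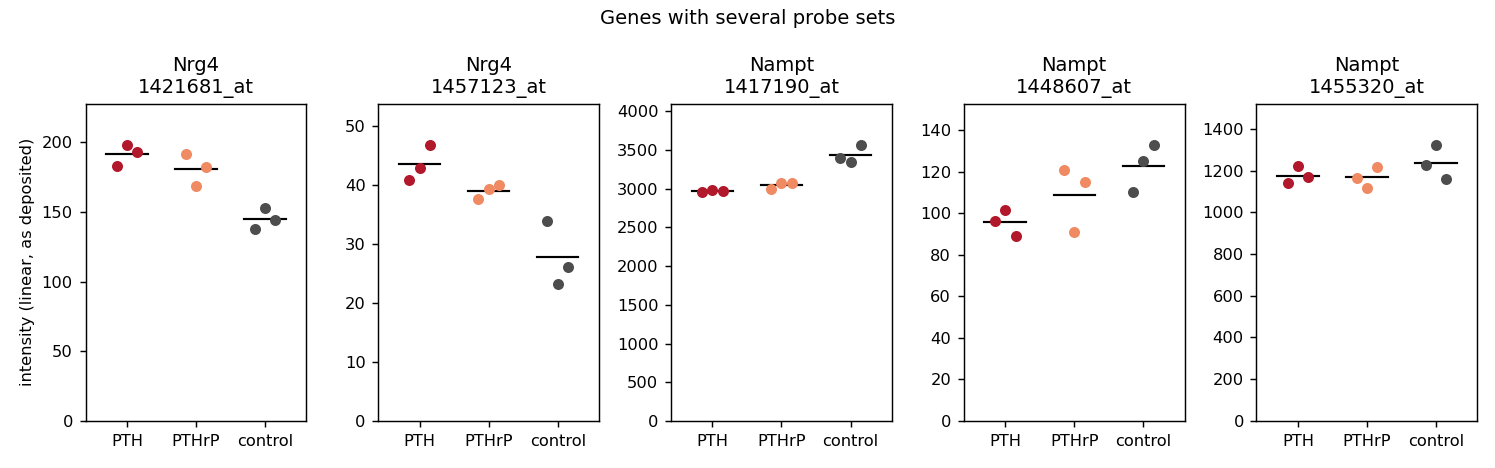
Intensity (linear, from 0) of the 2 probe sets of Nrg4 and the 3 of Nampt on the PTH, PTHrP and control arrays; points are arrays and lines are means. Both Nrg4 probe sets separate treated from control arrays, while of the Nampt probe sets 1 does so for both peptides, 1 for PTH and 1 for neither.

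The sequences upstream of the 3 genes that passed are shown because these genes moved under peptides whose receptor raises cyclic AMP. They are RefSeq's bases before the annotated start (GRCm38.p6), read 5′ to 3′ on the gene's strand: chrX:48034854-48035103 on the minus strand for Apln, chr9:55283655-55283875 on the minus strand for Nrg4 (the 221 bases of its window outside the annotated gene) and chr12:32820085-32820334 on the plus strand for Nampt. Capitals mark matches to the searched motifs.
Apln: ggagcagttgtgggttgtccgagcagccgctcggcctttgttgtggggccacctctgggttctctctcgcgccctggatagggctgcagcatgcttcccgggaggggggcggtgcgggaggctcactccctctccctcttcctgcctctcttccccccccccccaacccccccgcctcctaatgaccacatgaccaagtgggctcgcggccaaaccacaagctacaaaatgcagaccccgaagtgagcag
Nrg4: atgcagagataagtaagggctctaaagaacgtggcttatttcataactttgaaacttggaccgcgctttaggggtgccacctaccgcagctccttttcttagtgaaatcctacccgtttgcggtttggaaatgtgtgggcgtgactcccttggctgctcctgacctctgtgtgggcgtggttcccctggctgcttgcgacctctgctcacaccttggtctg
Nampt: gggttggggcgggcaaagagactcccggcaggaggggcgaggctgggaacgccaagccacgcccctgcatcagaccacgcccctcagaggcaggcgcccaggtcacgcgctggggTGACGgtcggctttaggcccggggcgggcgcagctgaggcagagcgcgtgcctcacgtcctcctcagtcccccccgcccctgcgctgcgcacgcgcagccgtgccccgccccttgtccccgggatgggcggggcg

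The motifs searched on both strands of the 250 bases before each start were TGACGTCA, the cAMP response element, TGACG, its core, which the full element holds on each strand, and CACGTG, the E-box. Neither Apln nor Nrg4 had a match to any of them in this window. Nampt, the gene that was lower, had a core at position -135 from the start. Among 32851 such windows of mouse genes, 1.55% held the full element, 17.8% the core and 6.02% the E-box. Of the other members, a second annotated start of Rbp4 had a core at -172, and the windows of Adipoq, Lep, Retn and Cfd had none of the 3 motifs. A match is a description of letters and not of a bound site.

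Rbp4 (19662), the carrier of retinol in blood, separated the groups without passing the test. It read 7164, 7538 and 7436 with PTH, 7404, 7148 and 7192 with PTHrP, and 6984, 6737 and 6534 in controls, so that every treated array was above every control. The log2 change was 0.13 with PTH (SE 0.05, 95% interval 0.02 to 0.24, adjusted p = 0.178) and 0.10 with PTHrP (SE 0.05, interval -0.0049 to 0.21, adjusted p = 0.299). Non-overlap was common on these arrays: 3 of the 7 members were higher on all PTH arrays than on all controls where 12.8% of genes were, and 1 was lower where 13.2% were. With PTHrP the same counts were 3 where 10.4% of genes were higher and 1 where 12% were lower. With the 6 treated arrays together they were 3 where 7.48% were higher and 1 where 8.11% were lower.

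Adipoq (11450), coding for adiponectin, read 13500, 14819 and 13741 with PTH, 13370, 13687 and 12967 with PTHrP, and 13851, 13279 and 13724 in controls. The groups overlapped. Its log2 change was 0.04 with PTH (95% interval -0.08 to 0.16, adjusted p = 0.758) and -0.03 with PTHrP (-0.15 to 0.09, adjusted p = 0.833). These readings are near the upper end of the arrays, whose highest values were 17113 to 18614, and whether the signal is still proportional to RNA there was not tested. Retn (57264), coding for resistin, which in mice is made by fat cells, read 9064, 9654 and 9236 with PTH, 9230, 9065 and 8906 with PTHrP, and 9368, 8705 and 8906 in controls. It overlapped too, with log2 changes of 0.05 (interval -0.06 to 0.16, adjusted p = 0.665) and 0.01 (-0.10 to 0.12, adjusted p = 0.936).

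Lep (16846), codes for leptin and lay under the dim level on all 9 arrays. It read 1.0, 9.65 and 2.36 with PTH, 4.26, 4.78 and 6.44 with PTHrP, and 12.5, 3.18 and 6.23 in controls. At this signal no change in leptin RNA is read from the arrays, and its fitted differences are given only where the processing changed their sign.

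The direct comparison asked whether PTH and PTHrP, given at the same mass concentration and time, left different adipokine levels. No member passed (0 of 7, also 0 at an unadjusted p below 0.05), and of all genes 0% passed in limma, with 730 (4.01%) at an unadjusted p below 0.05. The log2 difference, PTH minus PTHrP, was -0.12 for Apln (95% interval -0.36 to 0.12), 0.08 for Nrg4 (-0.07 to 0.22), -0.04 for Nampt (-0.14 to 0.07), 0.03 for Rbp4 (-0.08 to 0.13), 0.07 for Adipoq (-0.05 to 0.19) and 0.04 for Retn (-0.07 to 0.15). The adjusted p was 0.999 for each. These intervals bound the differences that 3 arrays a group can show, and an interval that holds 0 does not show that the peptides act alike. On the brightest probe set of Nampt the 3 PTH arrays lay just below the 3 PTHrP arrays, as did 3.83% of all genes.

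**Figure D3:**
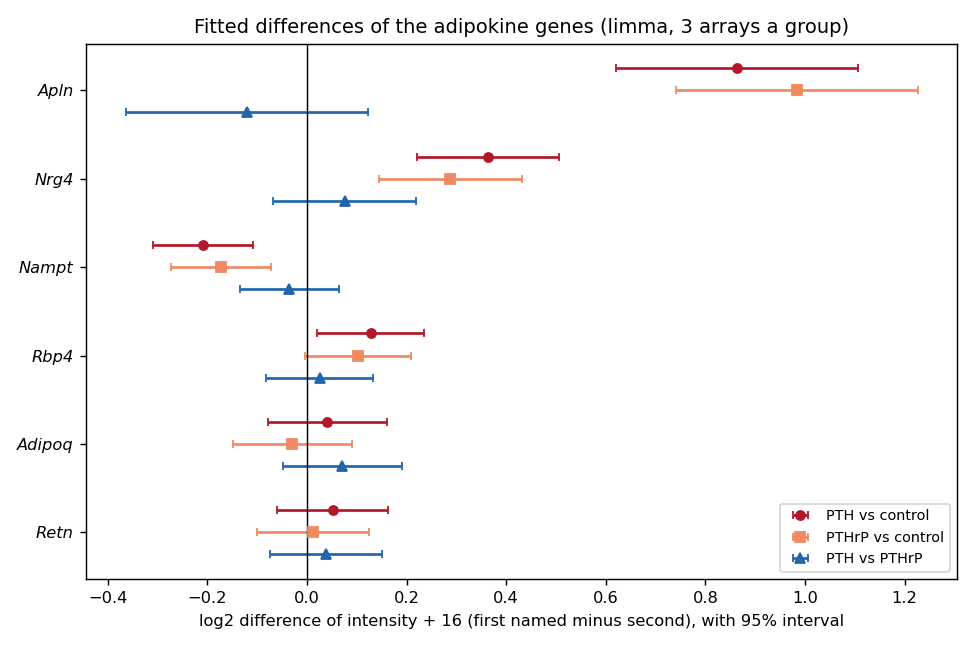
Log2 difference of intensity + 16 for each measured adipokine gene but the dim Lep (horizontal axis), with 95% intervals from limma, for PTH against control, PTHrP against control and PTH against PTHrP (n = 3 arrays a group). Apln and Nrg4 lie above 0 and Nampt below 0 with each peptide, and every interval of PTH against PTHrP holds 0.

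The genes whose log2 values followed Apln most closely over the 9 arrays, among 12823 genes outside the dimmest 40%, were Slc39a6 (Pearson r = 0.994), Gcnt2 (0.993) and Cpne8 (0.993). Gcnt2 changed by 0.85 and 0.89 on the log2 scale with PTH and PTHrP, and Slc39a6 by 0.31 and 0.35. Nrg4 was followed by Elfn1 (0.990), Gopc (0.982) and Kcnab2 (0.974). Nampt was followed by Casp12 (0.992), Ddit4l (0.982) and Lrrc17 (0.980), with log2 changes of -0.51, -0.66 and -0.57 with PTH. These are descriptions: the points share their arrays and the difference between treated and control groups, and the 3 highest of many genes were taken.

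RNA of genes whose proteins fold and release adiponectin was read because the level of Adipoq RNA does not settle how much protein leaves the cell. RNA of these genes does not settle it either, and the arrays read no protein. Of 10 such genes, 1 rose and 0 fell with each peptide; at an unadjusted p below 0.05 limma gave 2 higher and 1 lower with PTH, and 2 higher and 2 lower with PTHrP. Of all genes 9.19% and 9.82% were higher and lower with PTH at that threshold, and 8.22% and 10.1% with PTHrP, which also stand behind the unadjusted counts of the lists below. At an adjusted p below 0.05, 2.96% of all genes rose and 3.14% fell with PTH, and 2.54% and 3.03% with PTHrP. These shares stand behind the counts of risers and fallers in this list and those below. The riser was Ero1a, an oxidase of the endoplasmic reticulum known to promote the release of adiponectin held by the chaperone ERp44. It had 3873 ± 108 with PTH and 3788 ± 126 with PTHrP, against 2400 ± 94.2 in controls (SD, n = 3 each), a log2 change of 0.69 (adjusted p = 0.000264) and 0.66 (adjusted p = 0.000313). Both calls held in all 19 alternatives. Erp44 itself had log2 changes of 0.0017 and 0.05 (adjusted p = 0.991 and 0.648). The median log2 change of the list was -0.01 with PTH and -0.0078 with PTHrP.

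Among receptors of the members, 11 of 13 had probe sets, and 1 rose and 0 fell with each peptide (2 higher and 1 lower with PTH, and 2 higher and 0 lower with PTHrP, at an unadjusted p below 0.05 in limma). Ror1, a kinase-like surface receptor proposed to bind resistin, had 533 ± 20.6 with PTH and 551 ± 16.9 with PTHrP, against 396 ± 21.5 in controls (log2 change 0.41 and 0.46, adjusted p = 0.00479 and 0.00319), but did not pass when its probe sets were averaged. The adiponectin receptor genes Adipor1 (log2 change -0.07 and -0.09) and Adipor2 (0.07 and 0.05) did not pass. Erbb4, the receptor of neuregulin 4, Aplnr, that of apelin, and Stra6, that of Rbp4, were below the dim level on average. The median log2 change was 0.07 with PTH and 0.05 with PTHrP.

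The few genes of the retinol route around Rbp4 that passed moved in opposite directions. Of 9 measured (10 listed), 1 rose and 2 fell with PTH, and 1 rose and 1 fell with PTHrP (median log2 change -0.05 for each). At an unadjusted p below 0.05 limma gave 2 higher and 2 lower with each peptide. Of the 9, 5 were below the dim level on average. Rdh10, which oxidises retinol to retinal, had 1045 ± 29.6 with PTH and 1108 ± 80.5 with PTHrP, against 403 ± 52.3 in controls (log2 change 1.35 and 1.43), and its calls held in all 19 alternatives. Aldh1a3, which makes retinoic acid, fell by 0.36 with PTH (adjusted p = 0.00984, but 0.0522 without PTH replicate 3) and by 0.42 with PTHrP (0.00527); when its probe sets were averaged neither passed. Aldh1a1, of the same family, fell by 0.25 with PTH (adjusted p = 0.0462), a call lost without any 1 of the 9 arrays (up to 0.169).

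In NAD salvage, 1 of 14 measured genes (15 listed) rose and 0 fell with each peptide, with median log2 changes of 0.08 and 0.04; at an unadjusted p below 0.05 limma gave 2 higher and 0 lower with PTH and 3 and 0 with PTHrP. The riser was Nnmt, which methylates nicotinamide, the substrate of Nampt, at 3297 ± 84.6 with PTH and 3249 ± 53.7 with PTHrP, against 2854 ± 15.9 in controls (log2 change 0.21 and 0.19, adjusted p = 0.0262 and 0.0429). The PTH call was lost without any PTH or control array (up to 0.103), and the PTHrP call without any 1 of the 9 arrays (up to 0.135). In the complement cascade that adipsin serves, with 10 of 14 genes measured, 1 rose and 1 fell with PTH, and 1 rose and 0 fell with PTHrP (1 higher and 2 lower at an unadjusted p below 0.05 in limma; median log2 change -0.09 and -0.12). Cd55, an inhibitor of the cascade, rose (0.32 and 0.30, adjusted p = 0.0250 and 0.0323), and Cfb, the factor that adipsin cleaves, fell by 0.37 with PTH (adjusted p = 0.0474). The Cd55 calls were lost without any PTH or control array for PTH (up to 0.106) and without all but PTH replicate 2 and PTHrP replicate 3 for PTHrP (up to 0.101). The Cfb call was lost without any treated array other than PTHrP replicate 3, or without control replicate 2 or 3 (up to 0.157).

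Of 45 other secreted factors of fat (50 listed), 5 rose and 6 fell with PTH, where 2.96% of all genes rose and 3.14% fell. With PTHrP 4 rose and 6 fell, where 2.54% rose and 3.03% fell. This list too was chosen with earlier results of these data known, so its counts against these shares are not a test. At an unadjusted p below 0.05 limma gave 6 higher and 11 lower with PTH, and 6 higher and 9 lower with PTHrP. Of the 45, 10 were below the dim level on average. The median log2 change was -0.06 with PTH and -0.09 with PTHrP. The cytokine gene Il6 (log2 change 1.30 and 1.21), the growth factor gene Fgf10 (0.65 and 0.58) and Lcn2, coding for the iron-scavenger binder lipocalin 2 (0.47 and 0.47), rose with each peptide. Adm, coding for the vessel-dilating peptide adrenomedullin, had 1737 ± 101 with PTH and 1787 ± 44.0 with PTHrP, against 3315 ± 326 in controls (log2 change -0.92 and -0.88, adjusted p = 0.000488 and 0.000639). Adm thus went in the opposite direction to Apln, another peptide that acts on vessels. The chemokine gene Ccl2 fell as well (-0.65 and -0.67). These calls of Il6, Fgf10, Lcn2, Adm and Ccl2 held without each array in turn, though with only the groups compared in the fit Ccl2 and Lcn2 each had adjusted p = 0.0508 with PTHrP.

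Smaller changes in that list were less stable. Inhbb (-0.36 and -0.34) and Inhba (-0.31 and -0.31), coding for activin subunits, Metrnl (-0.31 and -0.36), a hormone of muscle and fat, and Ccn5 (-0.29 and -0.26), a matricellular protein, fell with each peptide, and Igf1 (0.21 and 0.22) rose. With the mean of probe sets Inhbb, Inhba and Metrnl did not pass with either peptide. Inhbb was lost only without PTHrP replicate 1 for PTHrP (0.0586). For PTH, Inhba was lost without any PTH array or control replicate 2 or 3 (up to 0.0811), Metrnl without any PTH array, PTHrP replicate 2 or control replicate 1 or 2 (up to 0.108), Ccn5 without PTH replicate 2 or 3 or control replicate 2 or 3 (up to 0.0747), and Igf1 without any PTH or control array or PTHrP replicate 1 (up to 0.138). For PTHrP, Inhba was lost without PTHrP replicate 1 or control replicate 2 or 3 (up to 0.0737), Metrnl without PTHrP replicate 1 or control replicate 1 or 2 (up to 0.0700), Ccn5 without PTH replicate 2, any PTHrP array or control replicate 2 or 3 (up to 0.106), and Igf1 without any 1 of the 9 arrays (up to 0.0838). Retnla, a relative of resistin, rose with PTH alone in the test (0.59, adjusted p = 0.0219) but was below the dim level, at 16.6 ± 4.16 with PTH against 5.62 ± 0.831 in controls, and its call was lost without PTH replicate 1 or 3 or any control (up to 0.0902). Its difference between the peptides did not pass.

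**Figure D4:**
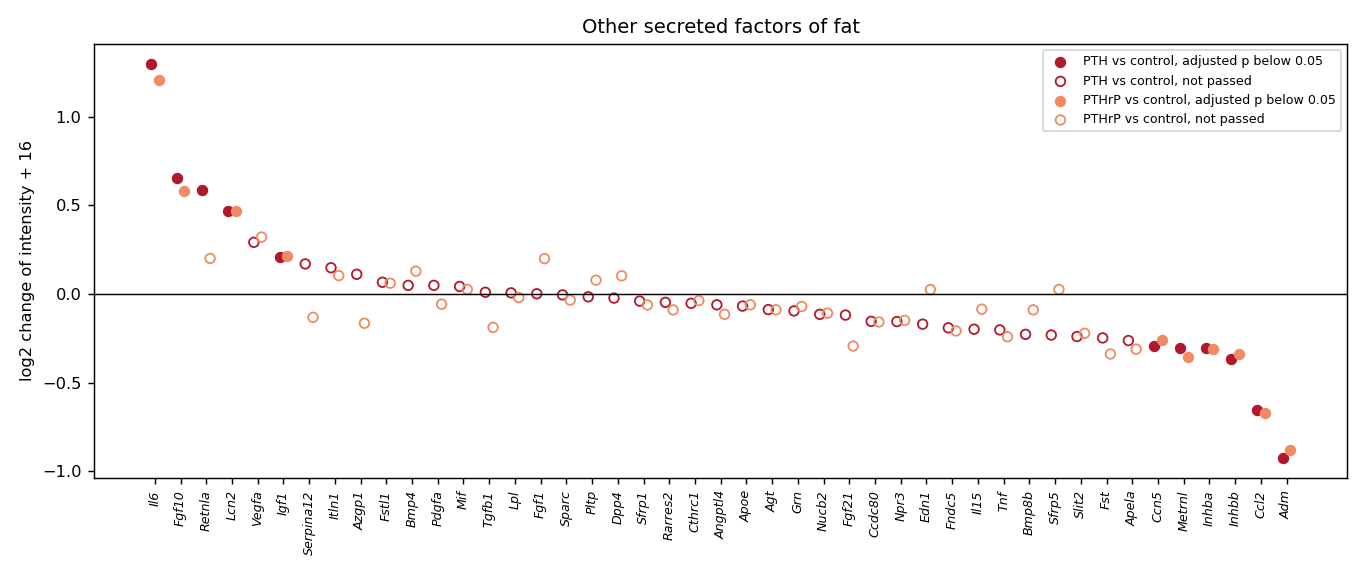
Log2 change of intensity + 16 (vertical axis) of the 45 other secreted factors of fat that have probe sets, for PTH and for PTHrP against control, ordered by the PTH value; filled points passed in limma (adjusted p below 0.05). Il6 is highest at 1.30 and 1.21 and Adm lowest at -0.92 and -0.88.

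Of 16 transcription factors that act on adipokine genes, 1 rose and 2 fell with PTH, where 2.96% of all genes rose and 3.14% fell. With PTHrP 1 rose and 3 fell, where 2.54% rose and 3.03% fell. At an unadjusted p below 0.05 limma gave 3 higher and 3 lower with PTH, and 3 higher and 4 lower with PTHrP. The median log2 change was -0.01 for each peptide. Pparg, the receptor that rosiglitazone binds, had log2 changes of 0.0054 and -0.04, and Cebpa 0.11 and 0.11; none passed. Klf15 (-0.41 and -0.42) and Ebf1 (-0.30 and -0.35) fell with each peptide, Cebpb rose (0.21 and 0.23), and Atf3 fell with PTHrP (-0.29, adjusted p = 0.0231) and had -0.22 with PTH (adjusted p = 0.0600). The Klf15 call was lost without any PTH array or control replicate 2 for PTH (up to 0.0612) and without control replicate 2 for PTHrP (0.0537). Of the others, Ebf1 was lost without all but PTHrP replicates 2 and 3 for PTH (up to 0.137) and without PTHrP replicate 1 or control replicate 1 or 2 for PTHrP (up to 0.0733), Cebpb was lost without all but PTHrP replicate 3 for each (up to 0.152), and Atf3 was lost with PTHrP without PTH replicate 3, PTHrP replicate 1 or 2 or control replicate 1 or 2 (up to 0.0799). Among 8 C1q and TNF related proteins, relatives of adiponectin (9 listed), 0 passed in limma with either peptide, and 1 was past an unadjusted p of 0.05 with PTH and 0 with PTHrP. The 2 with the largest change with PTH were C1qtnf7 (-0.31, adjusted p = 0.404) and C1qtnf6 (0.24, adjusted p = 0.326). The list's median log2 change was -0.07 with PTH and 0.05 with PTHrP.

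**Figure D5:**
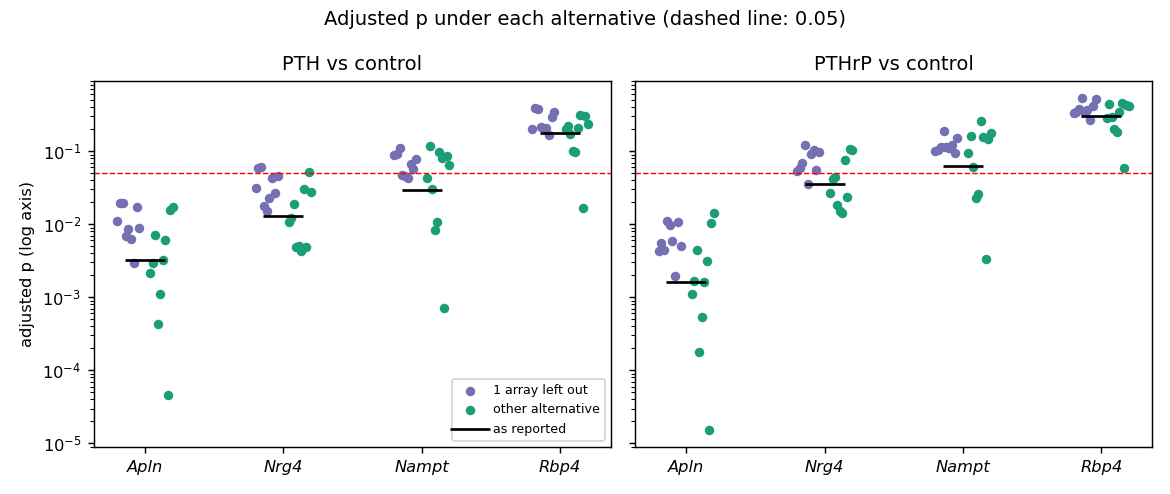
Adjusted p (vertical axis, log scale) of Apln, Nrg4, Nampt and Rbp4 for PTH and for PTHrP against control; the bar is the value as reported, points are the values with 1 array left out or under another alternative, and the dashed line is 0.05. Every point of Apln lies below the line, those of Nrg4 and Nampt lie on both sides, and those of Rbp4 lie above it except 1 for PTH at 0.0169.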

How the data were processed

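RNA was measured on 9 Affymetrix mouse arrays. The authors deposited 1 linear intensity per probe set and array per the file; probes were summarised, corrected for background and scaled by steps not given in the sources used here, and the linear scale was read from the values. Trimmed means of the arrays (2%) ran between 298.8 and 307.1, and 3 arrays a group limit the precision. The 45101 probe sets comprised 64 controls, 34945 with 1 gene symbol, 932 with several and 9160 with none, and only those with 1 were named.

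Each of 18193 genes was taken by its brightest probe set. Values were analysed as log2(intensity + 16) in limma 3.58.1 (R 4.3.3) with a mean for each group over all 9 arrays, two-sided, with Benjamini-Hochberg adjustment over the 18193 genes; SE and 95% intervals use limma's moderated variance. A fit over 45037 probe sets served the single probe sets. Changes understate the folds of dim genes. The code was tested on simulated data with 200 changed genes. Figures were drawn with matplotlib 3.10.9 (Python 3.11.15).

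The rule for naming took all members, every list gene past the threshold with either peptide (otherwise the 2 largest changes with PTH), and the 3 genes most correlated with each member that passed. The members and the 8 pathway and 7 marker lists were chosen with earlier results of these data known. Alternatives were quantile normalization, median centring, pseudocounts of 1 and 64, leaving out the dimmest 40%, a robust variance with a trend, averaging a gene's probe sets, fitting all probe sets, the replicate number as a block, only the groups compared, and leaving out each array.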

Additional observations from a re-analysis of the deposited data

How the results depend on the processing

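Apln kept its direction and its call with each peptide under all 19 alternatives, whereas the calls of Nrg4 and Nampt depended on them. Of 2257 single values recomputed for members, their probe sets and named list genes, 1898 kept direction and side of the threshold, 315 lost their call, 24 gained one and 20 changed sign, none of the last being called. The cause was not tested. The 1898 include values that were never called, such as those of PTH against PTHrP, and members with 1 probe set enter both as gene and as probe set. The total therefore does not measure how firm the calls are. Over the 19 alternatives, the Nrg4 call held in 16 with PTH and 8 with PTHrP, and the Nampt call with PTH in 8.

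The count of members lower with PTH was 0 with median centring, the mean of probe sets, all probe sets, the replicate block or only the groups compared, and with both peptides pooled it was 0 under the first 4 of these. With a pseudocount of 64, the dimmest 40% left out or a trended variance, 1 member (Nampt) was lower with PTHrP. Members higher with PTHrP numbered 1 with all probe sets, the block or only the groups compared.

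With the replicate number as a block, 1 member was higher with each peptide (Apln). Nrg4 then had adjusted p = 0.0527 with PTH and 0.107 with PTHrP, Nampt had adjusted p = 0.0871 with PTH, and 1 probe set of the members was higher with PTH and 1 with both peptides pooled. All genes called with the block were 311 higher and 361 lower with PTH, and 266 and 309 with PTHrP. Same-numbered arrays of different groups had deviations correlated between -0.170 and 0.122, and differently numbered arrays between -0.173 and 0.205. The labels do not say whether same-numbered arrays share a source, and the part of such a pairing in the calls lost was not tested. With the trended variance 839 genes were higher and 904 lower with PTH, and 738 and 910 with PTHrP. With only the groups compared 231 were higher and 224 lower with PTHrP; with a pseudocount of 64, 830 were lower with PTHrP, and with a pseudocount of 1, 2 were lower with PTH than with PTHrP. Of the members' probe sets, a pseudocount of 64, the dim filter or the trended variance gave 1 lower with PTH, 1 lower with the peptides pooled and 2 higher with PTHrP, and the pseudocount of 64 or the trended variance 1 lower with PTHrP.

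Leaving out 1 array at a time gave 1 to 2 members higher and 0 to 1 lower with PTH, 1 to 2 higher and 0 lower with PTHrP, and 2 higher and 0 to 1 lower pooled. Probe sets of the members were 1 to 2 higher with PTH, with PTHrP or pooled. All genes were 242 to 499 higher and 227 to 551 lower with PTH, 244 to 355 and 269 to 421 with PTHrP, 422 to 666 and 428 to 758 pooled, and 0 to 1 lower with PTH than with PTHrP.

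Sign changes were of values that had not passed. Adipoq with both peptides pooled was -0.0014 with quantile normalization and -0.015 to 0.019 with 1 array left out. With 1 array left out, the fitted values of Lep, below the dim level on every array, were -0.25 to 0.034 for PTHrP against control and -0.26 to 0.038 for PTH against PTHrP. Likewise Retn had -0.011 to 0.042 for PTHrP, the Nampt probe set of middle brightness -0.019 to 0.043 for PTH against PTHrP, C1qtnf6 -0.037 to 0.17 and C1qtnf7 -0.30 to 0.0035 for PTHrP.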
